A study of Mus musculus with 8 samples.

Results

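Integrins are heterodimers of an alpha and a beta subunit that hold cells to the matrix and to each other. The genes described here encode 10 integrin subunits of leukocytes and of the heart: Itgam, Itgal, Itgax and Itgb2 (leukocyte integrins), Itga4 and Itga5 (receptors for VCAM-1 and fibronectin), Itgav and Itgb3 (a vitronectin receptor), and Itga7 and Itgb1 (the laminin receptor of muscle). The rule for them uses gene names and no measured value, though the genes were picked with earlier results of these data known. A probe belonged to a gene when the manufacturer had named it by a RefSeq transcript of that gene, which gave 17 probes. Of these, 16 stood well above background on 4 or more arrays, the rule for a retained probe. All 10 genes had a retained probe, among 15152 genes with one. For each gene the brightest of these probes was used, and the other probes are given beside it.

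RNA came from the ventricles of male C57BL\6 mice. The 4 mice of the MI group had a permanent ligation of the anterior interventricular artery, a branch of the left coronary artery, and the 4 mice of the sham group had the same operation without ligation. All hearts were taken 24 hours after surgery, and each mouse has 1 array, hybridized in 1 colour. The age of the mice was not given in the sources used here beyond their being adult. The infarct covers only a part of the ventricles, so that infarcted and viable muscle were measured together.

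Before a leukocyte can leave the blood, it is slowed by selectins, then stopped by integrins that chemokine signals have switched from a bent to an extended shape. Talin and kindlin bind the tail of the beta subunit for this switch. Itgb2 encodes CD18, the beta chain shared by the leukocyte integrins. Its partners are Itgal (CD11a, of LFA-1), Itgam (CD11b, of Mac-1, abundant on neutrophils and monocytes) and Itgax (CD11c). In the cardiomyocyte, integrins sit in the costamere, where they join the sarcomere to laminin. Itgb1 is the beta chain of many receptors, of which Itga7 is the typical partner in muscle and Itga5 the fibronectin partner of fibroblasts, endothelium and many other cells. In the mouse reference annotation, no protein-coding gene lies between Itgam and Itgax, while 35 protein-coding genes lie between Itgal and Itgam.

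The promoter windows of 3 of the genes are shown because Itgam and Itgax are neighbours that encode partners of the same beta chain, and because Itga5 had the largest change among the 10 genes. Each window runs from 250 bases before to 50 bases after the gene start (RefSeq, GRCm38.p6), and is written along the strand of the gene. Capitals mark the core of the PU.1 site, GAGGAA or its reverse complement TTCCTC, and the AP-1 site TGANTCA. PU.1 is a transcription factor of myeloid cells, and AP-1 is the Fos and Jun complex.
Itgam, chr7:128062390-128062689, plus strand: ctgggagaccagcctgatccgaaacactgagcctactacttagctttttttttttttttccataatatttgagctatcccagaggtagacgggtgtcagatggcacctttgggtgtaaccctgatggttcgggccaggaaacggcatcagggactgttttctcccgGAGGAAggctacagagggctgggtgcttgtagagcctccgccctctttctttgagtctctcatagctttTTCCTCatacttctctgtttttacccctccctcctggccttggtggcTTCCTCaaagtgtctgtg
Itgax, chr7:128129300-128129599, plus strand: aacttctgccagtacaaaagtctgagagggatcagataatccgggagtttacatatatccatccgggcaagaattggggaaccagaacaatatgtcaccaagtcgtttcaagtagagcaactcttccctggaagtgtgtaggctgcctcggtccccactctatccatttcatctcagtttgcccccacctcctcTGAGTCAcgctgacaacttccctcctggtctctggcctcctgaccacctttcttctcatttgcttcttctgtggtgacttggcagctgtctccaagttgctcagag
Itga5, chr15:103366742-103367041, minus strand: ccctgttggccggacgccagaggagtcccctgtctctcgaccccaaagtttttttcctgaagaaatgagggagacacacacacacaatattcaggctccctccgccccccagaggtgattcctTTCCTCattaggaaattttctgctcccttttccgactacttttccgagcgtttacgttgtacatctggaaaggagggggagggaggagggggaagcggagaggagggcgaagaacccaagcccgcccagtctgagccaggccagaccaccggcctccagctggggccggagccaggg
The Itgam window holds 3 PU.1 cores, of which 2 start 84 and 15 bases before the gene start and 1 starts 32 bases after it. The Itgax window holds 0 PU.1 cores and 1 AP-1 match, TGAGTCA, which starts 56 bases before the gene start. The Itga5 window holds 1 PU.1 core, 127 bases before the gene start, and 0 AP-1 matches. The windows of Itgav, Itgb1 and Itga4, not shown, hold 2, 1 and 0 PU.1 cores, and 0 AP-1 matches each. Such letters are common. Of 32851 windows of this length, 28.3% hold a PU.1 core on either strand and 7.81% hold an AP-1 match.

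Of the 10 integrin genes, 5 rose in MI mice and 0 fell (limma, adjusted p under 0.05 over all retained probes). The genes that rose were Itga5, Itgax, Itgb3, Itgb2 and Itgb1, and the first 4 of these did so by more than 2-fold. Among all genes, 7.74% were higher at this threshold, 1.78% were lower, and 4.06% were higher by more than 2-fold. In each of the 5 genes, every MI mouse was above every sham-operated mouse, as was the case for 9.45% of all genes. Itgam, Itgal, Itga4, Itgav and Itga7 did not pass the test with their brightest probe. The median difference of the 10 genes was 0.73 on the log2 scale, beside 0.07 over all genes. Values are log2 signals normalized with spike-in RNA, and a level of one probe cannot be set against the level of another. Whole ventricle was measured, so that more cells of a type and more RNA per cell cannot be told apart. The split of higher and lower calls over all probes depends on the normalization. Of the called probes, 82.8% were higher in MI mice with the spike-in values and 49.6% when arrays were scaled to their 75th percentile. The median of all probes moved from 0.12 to -0.02 between these scalings. The same 5 integrin genes were called under both.

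**Figure D1:**
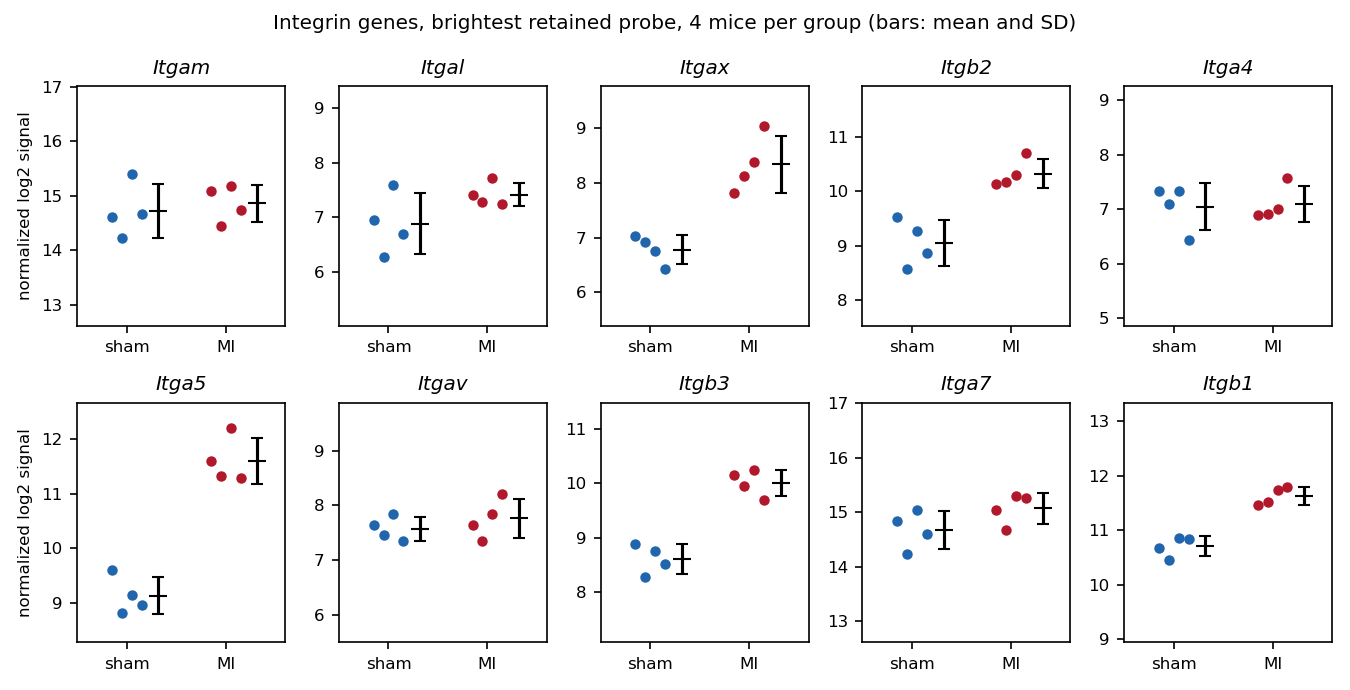
Normalized log2 signal of the brightest retained probe of each integrin gene in each mouse (y axis, same span in every panel), with sham-operated mice in blue, MI mice in red, and the mean and SD of each group in black. In Itga5, Itgax, Itgb3, Itgb2 and Itgb1 the 4 MI mice lie above the 4 sham-operated mice, and in the other 5 genes the groups overlap.

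Itgb2, the beta chain of the leukocyte integrins, was higher in every MI mouse. The log2 signals were 10.13, 10.17, 10.30 and 10.70 in MI mice and 9.53, 8.57, 9.27 and 8.88 in sham-operated mice. The groups did not overlap, and the lowest MI mouse stood 0.61 above the highest sham-operated mouse. The fold change was 2.40 (95% confidence interval 1.73 to 3.33, limma adjusted p = 0.000458, exact permutation p = 0.0286, the smallest p that 4 against 4 mice allow). Within the 2 rows of the slide, which each held 2 mice of each group, the log2 differences were 1.10 and 1.43.

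Itgax encodes CD11c, an alpha chain found on dendritic cells and on many macrophages and activated myeloid cells. Its log2 signals were 7.81, 8.12, 8.39 and 9.05 in MI mice and 7.03, 6.91, 6.75 and 6.42 in sham-operated mice. The groups were apart by 0.78. The fold change was 2.96 (95% confidence interval 2.10 to 4.17, limma adjusted p = 6.13e-05). MI mouse 4 was the highest and sham-operated mouse 4 the lowest, and the difference was 1.00 in the row of the slide without these mice and 2.13 in the row that held them. Leaving out single mice kept the difference of Itgax between 1.33 and 1.74, and it passed the test each time. The raw intensity of this probe lay between 64.9 and 602 over the 8 arrays. With the constants of a new spike-in fit, the difference was 0.78 (limma adjusted p = 0.0299).

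The 3 probes of Itgam gave different results. The brightest one, A_55_P1977934, read 15.08, 14.45, 15.18 and 14.73 in MI mice and 14.61, 14.23, 15.41 and 14.66 in sham-operated mice. These groups overlapped, and the fold change was 1.10 (95% confidence interval 0.778 to 1.55, limma adjusted p = 0.817). The second probe, A_55_P1977929, named by the same transcript, NM_001082960, read 8.75, 8.53, 9.05 and 9.02 in MI mice and 7.30, 6.70, 7.55 and 6.96 in sham-operated mice. Here the groups did not overlap, and the fold change was 3.27 (95% confidence interval 2.38 to 4.50, limma adjusted p = 5.13e-06), and the call held whichever mouse was left out. The difference of this probe shrank from 1.71 to 1.26 with normexp and to 0.96 with the constants of a new spike-in fit, under 2-fold, and stayed called with both (adjusted p = 3.9e-05 and 0.00320). The third probe, A_55_P1977926, named by the transcript NM_008401, read 7.71, 7.39, 7.81 and 7.58 in MI mice and 7.83, 6.85, 7.60 and 7.44 in sham-operated mice, with a difference of 0.19 (SE 0.22, limma adjusted p = 0.701). The raw intensity of the brightest probe lay between 19158 and 33617 over the 8 arrays, against 86.4 to 588 for the second probe. Centred on their means, the profiles of the probes over the 8 mice differed from that of Itgb2 by a root mean square of 0.29 for the second probe, 0.58 for the third and 0.68 for the brightest. This measure includes the difference between the groups, so a probe that rose as Itgb2 did lies nearer by construction. With the mean over the 3 probes, the difference of Itgam was 0.68 (limma adjusted p = 0.0433). Why the probes differ was not tested. Whether Itgam changed depends on which probe is read.

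Itgal encodes the alpha chain of LFA-1, found on nearly all leukocytes. Its brightest probe read 7.41, 7.28, 7.71 and 7.25 in MI mice and 6.95, 6.26, 7.60 and 6.69 in sham-operated mice. The groups overlapped through sham-operated mouse 3, and the difference of 0.54 (SE 0.24, limma adjusted p = 0.207) did not pass the test. Without that mouse it was 0.78 (limma adjusted p = 0.0402). A dimmer Itgal probe of the same transcript read 5.81, 6.25, 6.60 and 6.27 in MI mice and 5.14, 4.94, 4.32 and 4.65 in sham-operated mice. This probe was well above background in the 4 MI mice and in 2 of the sham-operated mice. Its fold change was 2.77 (95% confidence interval 2.01 to 3.83, limma adjusted p = 6.12e-05). With the additive constants of a new spike-in fit, which damp low signals, its difference was 0.28 (limma adjusted p = 0.0704). With normexp its difference was 0.40 (limma adjusted p = 0.0926). When any retained probe of a gene could make the call, 7 of the 10 genes were higher, beside 8.99% of all genes. Of the 7, 6 rose by more than 2-fold, beside 4.59% of all genes. Itgam and Itgal were the genes added. Itgal was added only through the dimmer probe, which was retained through the MI arrays, where it is high. Of the 16 retained integrin probes, 9 were higher, 7 of them by more than 2-fold, beside 6.3% and 3.07% of all retained probes. The 9 include the dimmer probes of Itgal and Itgb3, each well above background in only 2 sham-operated mice. These probes were retained through the group where they are high, so they add no separate support.

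**Figure D2:**
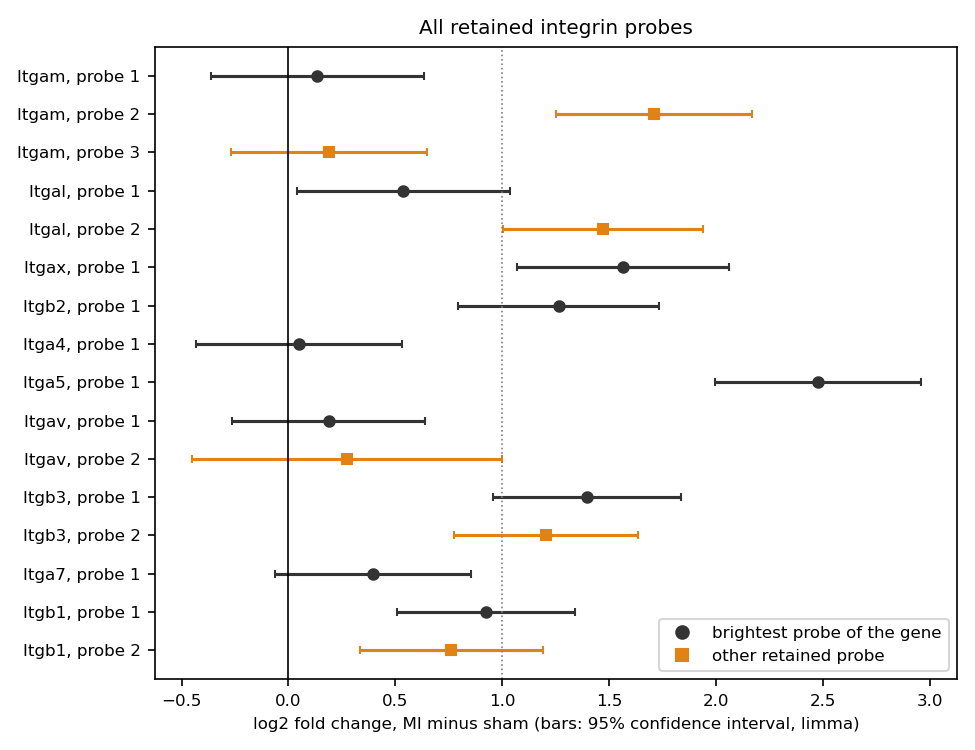
Log2 fold change of MI over sham-operated mice for the 16 retained integrin probes (x axis), with the 95% confidence interval of limma as bars and probes numbered by brightness within a gene. The second probes of Itgam and Itgal lie at 1.71 and 1.47, to the right of the brightest probes of the same genes at 0.14 and 0.54, while the probes of Itgav, Itgb3 and Itgb1 lie close together within each gene.

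Itga5, the alpha chain of the classical fibronectin receptor, had the largest difference of the 10 genes. Its log2 signals were 11.60, 11.33, 12.20 and 11.29 in MI mice and 9.59, 8.81, 9.15 and 8.97 in sham-operated mice. The groups were apart by 1.70. The fold change was 5.56 (95% confidence interval 3.98 to 7.77, limma adjusted p = 3.17e-08), and the differences within the rows of the slide were 2.26 and 2.69. Over the 5 other normalizations, the difference of Itga5 lay between 2.13 and 2.51.

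Itga4 forms VLA-4 with Itgb1, a receptor of lymphocytes and monocytes for VCAM-1. Its log2 signals were 6.90, 6.91, 7.00 and 7.58 in MI mice and 7.33, 7.09, 7.34 and 6.43 in sham-operated mice. The groups overlapped fully. The difference was 0.05 (SE 0.23, limma adjusted p = 0.937), and the 95% confidence interval of the fold change ran from 0.741 to 1.44. The sign of this difference is not settled, since it was -0.31 and 0.41 within the rows of the slide, -0.08 after scaling to the 75th percentile, -0.11 without MI mouse 4 and -0.16 without sham-operated mouse 4. A second probe of Itga4 was well above background on 0 arrays and was left out.

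Itgb3, which pairs with Itgav on endothelium and with Itga2b on platelets, rose in MI mice. Its log2 signals were 10.15, 9.95, 10.24 and 9.70 in MI mice and 8.89, 8.29, 8.75 and 8.52 in sham-operated mice. The groups were apart by 0.81. The fold change was 2.63 (95% confidence interval 1.94 to 3.57, limma adjusted p = 5.32e-05), with differences of 1.46 and 1.34 within the rows. A dimmer probe of Itgb3, well above background in the 4 MI mice and 2 of the sham-operated mice, gave 1.20 (limma adjusted p = 0.000283), and 0.20 (adjusted p = 0.147) with the constants of a new spike-in fit.

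Itgav, the alpha chain of the vitronectin receptors, read 7.65, 7.35, 7.84 and 8.20 in MI mice and 7.63, 7.46, 7.85 and 7.35 in sham-operated mice. The groups overlapped. The difference of Itgav was 0.19 (SE 0.22, limma adjusted p = 0.699), its fold change had a 95% confidence interval from 0.833 to 1.56, and the difference was -0.0029 after normexp background correction and -0.00053 after quantile normalization. A dimmer Itgav probe gave 0.27 (SE 0.35, limma adjusted p = 0.735). Sham-operated mouse 3 read 7.57 on it, above the other 7 mice, and without this mouse the difference was 0.83 (limma adjusted p = 0.0345).

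Itgb1, the most widely shared beta chain, rose in MI mice by less than 2-fold. Its log2 signals were 11.46, 11.51, 11.73 and 11.80 in MI mice and 10.68, 10.45, 10.85 and 10.83 in sham-operated mice. The groups were apart by 0.61. The fold change was 1.90 (95% confidence interval 1.42 to 2.54, limma adjusted p = 0.00363), and the difference was 0.92 in one row of the slide and 0.93 in the other. The dimmer probe of Itgb1 gave 0.76 (limma adjusted p = 0.0213) and was no longer called without MI mouse 3 (adjusted p = 0.0998) or without sham-operated mouse 2 (adjusted p = 0.0896).

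Itga7, the laminin-binding partner of Itgb1 in heart and skeletal muscle, did not pass the test. Its log2 signals were 15.04, 14.67, 15.30 and 15.27 in MI mice and 14.83, 14.23, 15.03 and 14.60 in sham-operated mice. The groups overlapped. The fold change was 1.31 (95% confidence interval 0.957 to 1.81, limma adjusted p = 0.343, exact permutation p = 0.114). Leaving out single mice kept the difference between 0.25 and 0.53.

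Of the integrin genes called, Itga5, Itgb3, Itgb2, Itgax and Itgb1 kept their calls whichever mouse was left out and under the 5 other normalizations. Significance analysis of microarrays, the permutation procedure that the methods of the study name, also called these 5 genes. An unmoderated t-test with Benjamini-Hochberg adjustment over all probes called Itga5, Itgb3 and Itgb1 and not Itgax (adjusted p = 0.0650) or Itgb2 (adjusted p = 0.0723). The size of the change moved most in Itgax, from 1.56 to 0.78 with the constants of a new spike-in fit, which is below 2-fold.

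**Figure D3:**
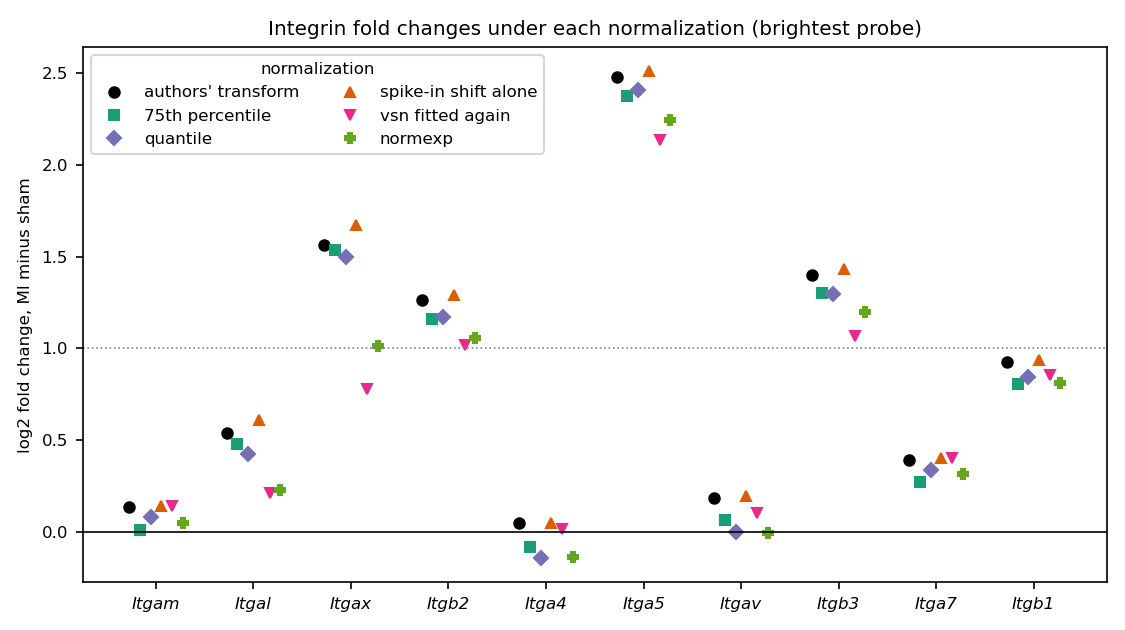
Log2 fold change of MI over sham-operated mice for the brightest probe of each integrin gene (y axis) under 6 normalizations, with the dotted line at 2-fold. Itga5 lies above 2 under each, Itgb1 between 0.80 and 0.94, and Itga4 and Itgav lie on both sides of 0.

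An integrin reaches the cell surface only as a pair, so the change of each alpha chain was set against that of its beta chain within each mouse. This comparison does not depend on the scale of an array. Itga5 rose more than Itgb1, by 1.55 on the log2 scale. Itgav changed less than Itgb3 by 1.21 and less than Itgb1 by 0.74, and Itga7 changed less than Itgb1 by 0.53. In none of these 4 pairs was there an overlap of the groups (exact permutation p = 0.0286, adjusted p = 0.0381 over 8 pairs). Itgax and Itgb2 differed by 0.30, with overlapping groups (exact permutation p = 0.286), and Itga4 against Itgb1 gave -0.87 (exact permutation p = 0.0571, adjusted p = 0.0653). For Itgam and Itgal the sign depended on the probe. Against Itgb2, Itgam gave -1.13 with its brightest probe and 0.45 with its second, and Itgal gave -0.73 and 0.21. With a second probe, Itgav gave -1.12 against Itgb3, with groups that did not overlap, and -0.65 against Itgb1, with groups that did. Leaving out single mice kept Itga5 minus Itgb1 between 1.39 and 1.71, Itga7 minus Itgb1 between -0.60 and -0.44 and Itgav minus Itgb3 between -1.46 and -1.09. An adjusted p under 0.05 over 8 pairs can be reached only where at least 5 pairs have the smallest exact p, so that the calls stand or fall together.

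Among 16 other integrin subunits, 11 had a retained probe and 2 had no probe named by a RefSeq transcript. Of the 11, Itga3 and Itga2b were higher in MI mice, Itga8 and Itga11 were lower, and the median difference was -0.06. Itga3, a laminin receptor chain of epithelium and other cells, rose by a fold of 2.23 (limma adjusted p = 0.00215) with groups that did not overlap. Itga8, a chain of mesenchymal cells, read 6.62, 6.16, 6.75 and 7.45 in MI mice and 8.03, 8.05, 8.16 and 7.20 in sham-operated mice. Its groups overlapped through mouse 4 of each group only, and its difference was -1.12 (SE 0.26, limma adjusted p = 0.00551). In Itga11, a collagen receptor chain of fibroblasts, the groups also overlapped through mouse 4 of each group only. MI mouse 4 read 8.34, above the other 3 MI mice, and sham-operated mouse 4 read 7.95, below the other 3 sham-operated mice. The difference of Itga11 was -0.92 (limma adjusted p = 0.0252). Itga11 was no longer called without MI mouse 1 (adjusted p = 0.0598), MI mouse 2 (adjusted p = 0.0990) or sham-operated mouse 3 (adjusted p = 0.0885). Itga2b, the platelet partner of Itgb3, differed by 0.94 (limma adjusted p = 0.0378), and its call was lost under each of the 5 other normalizations, where the difference lay between 0.09 (normexp, adjusted p = 0.666) and 1.19 (spike-in shift alone, adjusted p = 0.0690). It was also lost without MI mouse 1, 2 or 3 or sham-operated mouse 3 (adjusted p between 0.0558 and 0.169). With the constants of a new spike-in fit, 0 of the 11 subunits were called, and the differences were 0.59 in Itga3 (adjusted p = 0.0652), -0.49 in Itga8 (adjusted p = 0.104) and -0.51 in Itga11 (adjusted p = 0.191). The count of 4 called subunits fell to 2 without MI mouse 1 or without sham-operated mouse 3. Itga2b and Itga11 changed by less than 2-fold and were named after their values were seen.

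Of 26 genes for integrin ligands, 22 had a retained probe, 3 rose in MI mice and 0 fell, with a median difference of 0.13. Among all genes, 7.74% were higher and 1.78% lower. That 0 ligands fell depends on the normalization. Vtn, the vitronectin gene, differed by -0.67 (limma adjusted p = 0.0124) after scaling to the 75th percentile. Lama5, a laminin chain, differed by -0.90 (limma adjusted p = 0.0101) with this scaling. With the spike-in values, the differences were -0.54 in Vtn and -0.77 in Lama5 (limma adjusted p = 0.181 and 0.0546). Thbs1, a matricellular protein bound by Itgav and Itgb3, read 11.44, 12.66, 12.33 and 12.76 in MI mice and 10.30, 9.84, 11.39 and 10.22 in sham-operated mice. Every MI mouse was above every sham-operated mouse, and the fold change of Thbs1 was 3.62 (limma adjusted p = 7.96e-05). Icam1, the endothelial ligand of LFA-1 and Mac-1, read 9.03, 8.04, 9.07 and 7.68 in MI mice and 7.09, 6.63, 7.04 and 6.83 in sham-operated mice, a fold change of 2.94 (limma adjusted p = 0.000207). With the constants of a new spike-in fit the difference of Icam1 was 0.82 (adjusted p = 0.0698). Ccn2, the connective tissue growth factor, differed by 0.94 (limma adjusted p = 0.0138). It was named after its values were seen, and its call was lost without MI mouse 3 (adjusted p = 0.0626) and after scaling to the 75th percentile (adjusted p = 0.0734). The call of Ccn2 was also lost with the constants of a new spike-in fit (adjusted p = 0.0832) and with the spike-in shift alone (adjusted p = 0.0521). For Fn1, which encodes the fibronectin bound by Itga5, the difference was 0.53 (SE 0.25, limma adjusted p = 0.236), and for Vcam1, the ligand of VLA-4, it was 0.62 (SE 0.23, limma adjusted p = 0.104). Another probe of Vcam1 was called. Fn1 and Vcam1 were named after their values were seen, as ligands of genes above. Vtn and Lama5 were also named after their values were seen.

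Inside the cell, integrin tails are bound by activators and adaptors that join them to actin and to kinases. Of 39 such genes, 37 had a retained probe, 14 rose in MI mice and 0 fell, with a median difference of 0.49. The largest change was that of Flnc, the filamin of muscle that binds beta tails, with log2 signals of 15.51, 15.64, 15.81 and 15.45 in MI mice and 13.55, 13.33, 13.67 and 13.23 in sham-operated mice. Its fold change was 4.46 (limma adjusted p = 3.2e-08). Actn1, the non-muscle alpha-actinin of focal adhesions, rose 3.84-fold (limma adjusted p = 6.04e-06). Fgr, a Src family kinase of myeloid cells that acts below the leukocyte integrins, rose 3.83-fold (limma adjusted p = 2.07e-07). In Flnc, Actn1 and Fgr the groups did not overlap. Fermt3, the kindlin of blood cells, rose by 1.00 on the log2 scale (SE 0.22, limma adjusted p = 0.00323). The count of 14 fell to 9 without MI mouse 3, without sham-operated mouse 2 or without sham-operated mouse 4, and to 10 without MI mouse 1 or MI mouse 4.

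Of 14 membrane partners of integrins, 5 rose in MI mice and 0 fell, with a median difference of 0.23. Plaur, the urokinase receptor that associates with Mac-1 and with beta1 integrins, read 11.45, 12.54, 12.64 and 12.25 in MI mice and 9.57, 9.27, 10.41 and 10.01 in sham-operated mice. The groups did not overlap, and its fold change was 5.30 (limma adjusted p = 3.5e-07). The other 4, named after their values were seen, were Sdc4, Slc3a2, Sdc1 and Plau, and their differences lay between 0.72 and 1.00. The count of 5 fell to 3 without MI mouse 1, 3 or 4 or without sham-operated mouse 2.

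**Figure D4:**
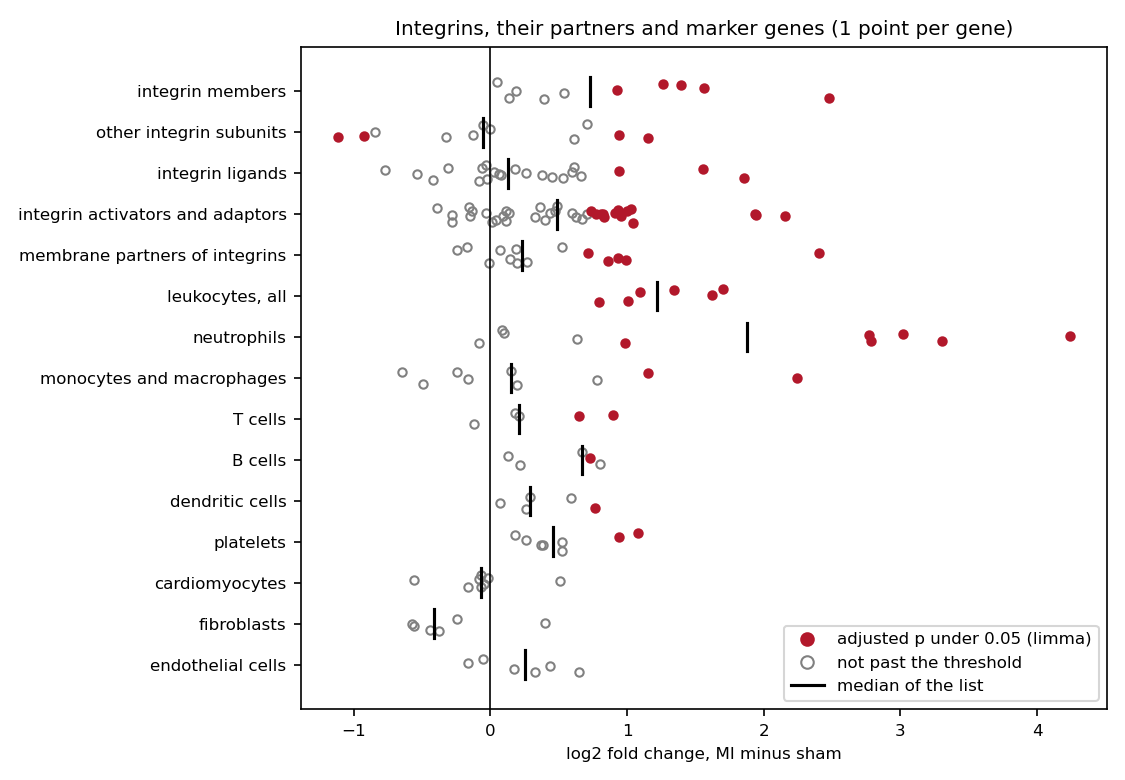
Log2 fold change of MI over sham-operated mice (x axis) of each gene with a retained probe in the lists of integrins, their partners and cell type markers (rows), with genes called by limma filled in red and the median of each list as a black line. The integrin median lies at 0.73 and the leukocyte median at 1.22, while the cardiomyocyte, fibroblast and endothelial lists hold 0 called genes.

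Pan-leukocyte genes and many neutrophil genes rose in MI mice, and fewer genes of the other leukocyte lists did. The part of these cells in the integrin changes was not tested. All 6 pan-leukocyte genes were higher in MI mice, with a median of 1.22. Their summed level ranged from 10757 to 14051 with MI and from 3987 to 5784 with sham operation. Such a sum is weighted to the brightest probes of a list and is not an amount of cells. Ptprc, which encodes CD45, rose 2.14-fold (limma adjusted p = 0.000906), and Cd53, Coro1a, Lcp1 and Laptm5 rose between 2.01-fold and 3.26-fold. Cd37 was also called, and was named after its values were seen. The call of Cd37 was lost without MI mouse 1 or 3 or sham-operated mouse 2 or 4 (limma adjusted p between 0.0522 and 0.106). Of 11 neutrophil genes, 10 had a retained probe and 6 were higher. Retnlg rose by 4.24 on the log2 scale, Cxcr2, a chemokine receptor of neutrophils, by 3.31, S100a8 by 3.02 and S100a9 by 2.79. Ngp, a granule gene, was not well above background in any sham-operated mouse, so its probe was retained through the MI arrays alone. Its fold change was 3.99 with sham-operated mice set at the lowest signal well above background on their arrays. The limit of this probe itself was not measured, so 3.99 is not a strict lower bound. For Csf3r, the receptor for granulocyte colony-stimulating factor, the difference was 0.08 (limma adjusted p = 0.878). The neutrophil list had a median of 1.88, or 1.49 with Ngp at the 3.99-fold value. The summed level of the list ranged from 205733 to 318307 with MI and from 62732 to 87868 with sham operation.

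Of the monocyte and macrophage genes, 9 of 11 had a retained probe and 2 were higher, Cd14 by 2.25 and Ccr2 by 1.15. Csf1r and Adgre1, both defining genes of macrophages, gave -0.16 and -0.24 (limma adjusted p = 0.763 and 0.618). The summed level ranged from 17042 to 24717 with MI and from 13344 to 20561 with sham operation. Of 8 T cell genes, 5 had a retained probe and 2 were higher, Cd3d by 0.90 and Lck by 0.65, while Cd3e gave -0.12 (limma adjusted p = 0.814). Lck kept its call only without MI mouse 2. In B cells, 5 of 6 genes had a retained probe and only Cd79b was higher, by 0.73, while Cd79a gave 0.21 (limma adjusted p = 0.657). Of the dendritic cell genes, 5 of 6 had a retained probe and Cd209a was higher, by 0.76. Both single calls were lost in several of the fits with 1 mouse left out. With the constants of a new spike-in fit, Cd3d, Lck, Cd79b and Cd209a were not called. Of 6 NK cell genes, 2 had a retained probe and 0 were called. Of the 8 platelet genes, Ppbp and Itga2b were higher, and Pf4, which did not pass the test, gave 0.53 (limma adjusted p = 0.131).

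The ventricle itself is made of cardiomyocytes, fibroblasts, endothelium and smooth muscle. None of 8 cardiomyocyte, 6 fibroblast and 6 endothelial genes was called. The differences were -0.05 in Myh6, the cardiac myosin heavy chain, -0.57 in Col1a1, a collagen of fibroblasts, and 0.65 in Pecam1, an endothelial adhesion molecule (limma adjusted p = 0.937, 0.251 and 0.109). When arrays were scaled to their 75th percentile, Pecam1 was higher, by 0.53 (adjusted p = 0.0389), and Pln, a cardiomyocyte gene, was lower, by a difference of -0.68 (adjusted p = 0.00643). Of 4 smooth muscle genes, Acta2, which myofibroblasts also express, rose 2.75-fold (limma adjusted p = 0.000237). All 8 cardiomyocyte genes were well above background on all 8 arrays.

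Profiles over the 8 mice, each centred on its mean, were compared for Itgb2 and Itga7 with those of 15142 other genes by their root mean square difference on the log2 scale. Nearest to Itgb2 were B4galnt1 (0.141), 5730416F02Rik (0.152), Lcp1 (0.155), Hcls1 (0.156) and Tnfrsf23 (0.157). Lcp1 encodes the plastin of leukocytes and Hcls1 a cytoskeletal protein of blood cells. Each of these 5 genes was itself higher in MI mice, by 1.08 to 1.43. Nearest to Itga7 were Hipk2 (0.038), Zfp710 (0.049), Snx18 (0.053), Septin11 (0.067) and Coro1c (0.070). None of these 5 genes passed the test, and their differences of 0.42 to 0.48 lay close to the 0.40 of Itga7. A likeness of this kind is a description of 8 mice. Because a near profile includes a near difference between the groups, the differences of these genes follow from how they were picked.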

How the data were processed

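RNA of the ventricles of 8 mice was hybridized to mouse SurePrint G3 8x60K arrays with 62976 spots each. Per the file headers, Feature Extraction 11.0.1.1 had taken the local background and a spatial trend off the deposited intensities. The flags of the scanner software (well above background, outlier, saturated) were used as deposited. The authors made the deposited log2 values with limma and vsn, using spike-in probes for the normalization and leaving out spots close to background. A least-squares fit of the log2 of the scaled intensity plus an offset to these values returned both terms for each array (offsets 3.16 to 19.6 in signal units), with a misfit of at most 5.02e-09 on the log2 scale. The same transform was then applied to every spot that was not marked as an outlier, and spots of a probe were averaged. Of 55681 probes that are not controls, 34038 were well above background on at least 4 arrays and were retained. The share of spots above background ranged from 58.6% to 66.4%, and precision is limited by the number of arrays.

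MI and sham-operated mice were compared in limma 3.58.1 (R 4.3.3) without covariates, with Benjamini-Hochberg adjustment over all retained probes. A probe was called at an adjusted p under 0.05, and a fold over 2 was counted separately. Exact permutation tests were two-sided over the 70 label permutations. Python 3.11.15 with numpy 2.4.6, scipy 1.17.1, pandas 2.3.3 and matplotlib 3.10.9 was used otherwise. The fit was tested on simulated data with known changes. RefSeq accessions paired 26576 probes with gene symbols of GRCm38.p6, and the brightest retained probe stood for a gene. All arrays shared 1 slide and 1 scan, and each of the 2 rows of the slide held 2 mice of each group. Groups came from the sample labels, and nothing in the labels tells whether the mice were operated in batches. All integrins were named, and in the other lists the genes called with a fold over 2 (at most 6 per list), defining markers of each cell type, and the 5 genes nearest in profile to Itgb2 and to Itga7. The values of 2 genes that this rule names are not reported here. The members and lists were chosen with earlier results of these data known.

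The alternatives were scaling to the 75th percentile, a new fit of the vsn model to 234 spots of 7 spike-in probes (constants 166 to 257), a spike-in shift with no offset, quantile normalization, normexp on the median intensities with an offset of 50, the deposited log2 values, detection on all 8 arrays, no filter, blocks for replicate number and row, significance analysis of microarrays programmed here, an unmoderated t-test, the mean over the probes of a gene, and each mouse left out. The use of any retained probe of a gene, and of the next brightest probe in the heterodimers, was chosen after seeing the data.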

Additional observations from a re-analysis of the deposited data

Results flagged for a closer look

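In 2 of 32 groups of 4 mice, 1 mouse stood far from the other 3. On the brightest Itga4 probe, MI mouse 4 read 7.578 on the log2 scale, against 6.897 to 7.004 in the other MI mice, so that its gap took up 0.8436 of the range of the group. On the dimmer Itgb1 probe, sham-operated mouse 2 read 7.993, against 8.453 to 8.494 in the other sham-operated mice, a gap of 0.9172 of the range. Chance alone flags about 1 in 20 such groups.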

How the results depend on the processing

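The count of 5 called integrins was 5 under every normalization, filter and block tried, 5 (4 by more than 2-fold) with significance analysis of microarrays, 3 (2 by more than 2-fold) with an unmoderated t-test after Benjamini-Hochberg adjustment, 7 with the mean over the probes of a gene, and 5 to 6 with 1 mouse left out (4 by more than 2-fold each time). For the mean over the probes, the share of all genes called was not counted, so the 7 has no background beside it. The mean of Itgal includes its dimmer probe, which was retained through the MI arrays. The same t-test without adjustment called 5 integrins, 4 of them by more than 2-fold, and 5337 probes in all, 1147 of them by more than 2-fold. Over all retained probes, 2590 were called, 1184 of them by more than 2-fold. The counts were 5973 after scaling to the 75th percentile, 5971 with quantile normalization, 6021 (518 by more than 2-fold) with normexp, 1271 (333) with the vsn model fitted again, 990 without a filter on detection, 747 (576) with the t-test, and 1883 to 3213 (1046 to 1461) with 1 mouse left out. The counts for other integrin subunits (4 as reported) were 0 with the vsn model fitted again, without a filter and with the t-test, 2 with the spike-in shift alone, and 2 to 5 with 1 mouse left out. The counts for ligands (3) were 1 with the vsn model fitted again, 6 with quantile normalization and 7 with normexp. They were 5 with significance analysis of microarrays, 0 with the t-test, and 2 to 4 with 1 mouse left out. The counts in these lists join genes that were higher and genes that were lower. Among the ligands, Vtn and Lama5 were called lower with quantile normalization, with normexp and with the replicate block. The counts for activators and adaptors (14) were 9 with the spike-in shift alone, 5 without a filter, 4 with the t-test and 9 to 17 with 1 mouse left out. The counts for membrane partners (5) were 1 without a filter, 1 with the t-test and 3 to 5 with 1 mouse left out. For the 8 subunit pairs (6 passing), 0 passed with the next brightest alpha probe and 0 to 5 with 1 mouse left out. These calls need at least 5 pairs at the smallest exact p and say nothing of stability. Itga5 and Itga7 had no other probe, and the beta probes were kept. Itga5 minus Itgb1 (1.55) and Itga7 minus Itgb1 (-0.53) therefore could not change in the comparison with the next probes. The cause of the other moves was not tested.

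Except for Itgam and Itgal against Itgb2, differences that changed sign were below the threshold as reported. For Itga4 (0.05, range -0.157 to 0.147 with 1 mouse left out) they were -0.081 after scaling to the 75th percentile, -0.14 with quantile normalization and with normexp, -0.11 without MI mouse 4 and -0.16 without sham-operated mouse 4. For Itgav (0.19) they were -0.00053 with quantile normalization and -0.0029 with normexp. For Itgam (0.14) the difference was -0.032 without sham-operated mouse 2 and ranged up to 0.362 without sham-operated mouse 3. With the next brightest alpha probe, Itgam minus Itgb2 was 0.45 and Itgal minus Itgb2 was 0.21. For Itgax minus Itgb2 the values were -0.24 with the vsn model fitted again and -0.045 with normexp.

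The replicate numbers were not taken as pairs, since the labels do not tie them and the correlations of same-numbered mice were 0.24, 0.29, 0.14 and 0.01. With the replicate block, 4895 probes, 5 integrins, 2 other subunits and 7 ligands were called. With the vsn model fitted again, 3 of the 5 called integrins differed by more than 2-fold. Signals near the background limit the probe of Itgax and the dimmer probes of Itgam, Itgal and Itgb3, whose changes shrink with larger additive constants.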
